A study of Mus musculus with 12 samples.

Results

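Imprinted genes are expressed mainly from the chromosome copy of 1 parent. DNA copy number was examined at 41 of them in a pair of murine pancreatic ductal adenocarcinoma (PDAC) lines. With earlier results of these data known, the genes were chosen by name, as well known members of 16 imprinted clusters. They were looked up among the 22035 gene names carried by the copy-number segments, of which 21139 are autosomal, and all 41 were found in each line. The list holds 19 genes expressed from the maternal copy, 21 expressed from the paternal copy, and Gnas, a complex locus with transcripts from either copy. In this list 9 clusters contribute several genes and 7 contribute 1 gene each.

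The lines, 15376T and 14837T, are primary cell lines from PDAC of engineered C57BL/6 mice. By the methods of the study the alleles of the mice of both lines included ROSA_rtTA, p48-Cre and a floxed Trp53 allele, Trp53 L/+. The rtTA protein is active with doxycycline, which the methods list in the culture medium of both lines, and p48-Cre acts in the developing pancreas. The labels give the genotype of both lines as WT and give no age. Each line was sequenced as 1 library of whole exome DNA (WES) with no further treatment, labelled WES-15376T and WES-14837T, and values are given by line name. The lines are of an inbred background, so the tables cannot tell which parental chromosome a lost copy came from, and they hold neither expression nor DNA methylation.

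Exome capture enriches exons with probes, and the labels and the methods each name a capture kit made for human exons. The coverage of a bin, a small stretch of the genome, was set against a reference that is not given in the sources used here. Neighboring bins of like coverage were joined into a segment, and the log2 ratio of that segment is the value each gene in it receives. The tables held 191 and 235 segments over 217776 and 217778 bins in 15376T and 14837T, at a mean autosomal depth of 43.4 and 47.5. A log2 of at most -0.25 was called as a loss and one above 0.2 as a gain. Every imprinted gene called lost had a called copy number of 1, so a copy was left. There is no replicate of any value. In place of replicates, the log2 of the 103 autosomal 2-copy segments of 15376T had an SD of 0.090 and that of the 96 of 14837T an SD of 0.095. This SD served as the spread, and a difference between the lines was set against 0.13, the root of the summed variances. Only segments between the thresholds of -0.25 and 0.2 enter the SD, so the thresholds limit its size. Segments of any bin number count alike in it, so it is not the error of a given segment value. Being within or beyond the spread is therefore a yardstick of size and not a test.

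Imprinting works through control regions that carry DNA methylation on 1 parental copy only. At many clusters such a region governs a long noncoding RNA, and that RNA or an insulator keeps the neighboring protein-coding genes silent on the same copy. Several paternally expressed genes, of which Igf2 is the best known, promote fetal growth, and several maternally expressed genes, such as Cdkn1c, Igf2r and Grb10, restrain it. Because only 1 copy of such a gene is active, the effect of losing a copy depends on the parent it came from, and altered imprinting of the H19-Igf2 and Kcnq1 clusters is well known in growth disorders and in tumors.

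Small RNAs are part of these loci. H19, Igf2 and Mest host the miRNA genes Mir675, Mir483 and Mir335, and their 6 mature sequences are shown. They are products of loci called at 1 copy in both lines (H19 and Igf2) or at 2 copies in both (Mest). The sequences are those of RefSeq on GRCm38.p6, 5′ to 3′, with the seed (bases 2 to 8) in capitals.
mmu-miR-675-5p (H19, minus strand, chr7:142577112-142577133): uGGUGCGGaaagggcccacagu
mmu-miR-675-3p (H19, minus strand, chr7:142577078-142577099): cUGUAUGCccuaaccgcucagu
mmu-miR-483-5p (Igf2, minus strand, chr7:142654968-142654989): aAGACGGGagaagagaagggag
mmu-miR-483-3p (Igf2, minus strand, chr7:142654932-142654952): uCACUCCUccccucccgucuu
mmu-miR-335-5p (Mest, plus strand, chr6:30741314-30741336): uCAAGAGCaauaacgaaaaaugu
mmu-miR-335-3p (Mest, plus strand, chr6:30741354-30741375): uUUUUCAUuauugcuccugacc
The 6 seeds are all different. Mir483 was covered by 1 bin, with a depth of 10.6 in 15376T and 12.4 in 14837T. The name Mir675 was not found among the gene names of the segments, and its position lies within that of H19.

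In 15376T, 19 of the 41 imprinted genes were called lost (46.3%), 3 were called gained (7.32%) and 19 were called at 2 copies. Among all autosomal gene names of this line, 30% were called lost and 9.13% gained. In 14837T, 17 of 41 were called lost (41.5%), 2 were called gained (4.88%), 21 were called at 2 copies, and Trappc9 was mixed because it lies in 2 segments with different calls. The autosomal gene names of this line were 28.7% lost and 21.4% gained. The share of losses lay above that of all names in both lines, and the share of gains below it. With only an absolute log2 of at least 0.5 called, 19 genes were lost in 15376T and 4 in 14837T (Ndn, Magel2, Mkrn3 and Peg12), and 0 were gained.

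Most of the losses lay on chromosome 7. All 17 imprinted genes on this chromosome were called lost in both lines, and so were 100% of its 1920 gene names in 15376T and 96.8% in 14837T. Of the 24 imprinted genes on other chromosomes, 2 were called lost and 3 gained in 15376T (8.33% and 12.5%), and 0 were called lost and 2 gained in 14837T (0% and 8.33%). Gene names on the other autosomes were lost at 23.0% and 21.9% and gained at 10.0% and 23.6% in 15376T and 14837T, in that order. Outside chromosome 7 the share of losses among the imprinted genes was thus below that of other names in both lines. These counts of 2 and 0 of 24 were not tested, since genes of a cluster share a segment.

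**Figure D1:**
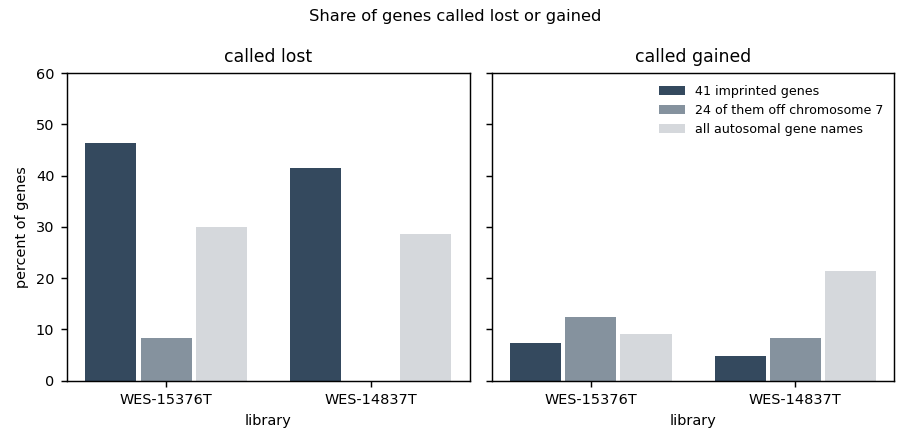
Percent of genes called lost (left) and gained (right) in each library. Dark bars stand for the 41 imprinted genes, middle bars for the 24 of them off chromosome 7 and pale bars for all autosomal gene names. The dark bars for losses reach 46.3% and 41.5%, and off chromosome 7 they are 8.33% and 0%.

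The losses covered genes of either parental allele. Of the 19 maternally expressed genes, 8 were called lost in each line. Of the 21 paternally expressed genes, 11 were called lost in 15376T and 9 in 14837T, the extra pair being Impact and Rasgrf1. Chromosome 7 held 8 maternally and 9 paternally expressed genes, all of them lost.

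**Figure D2:**
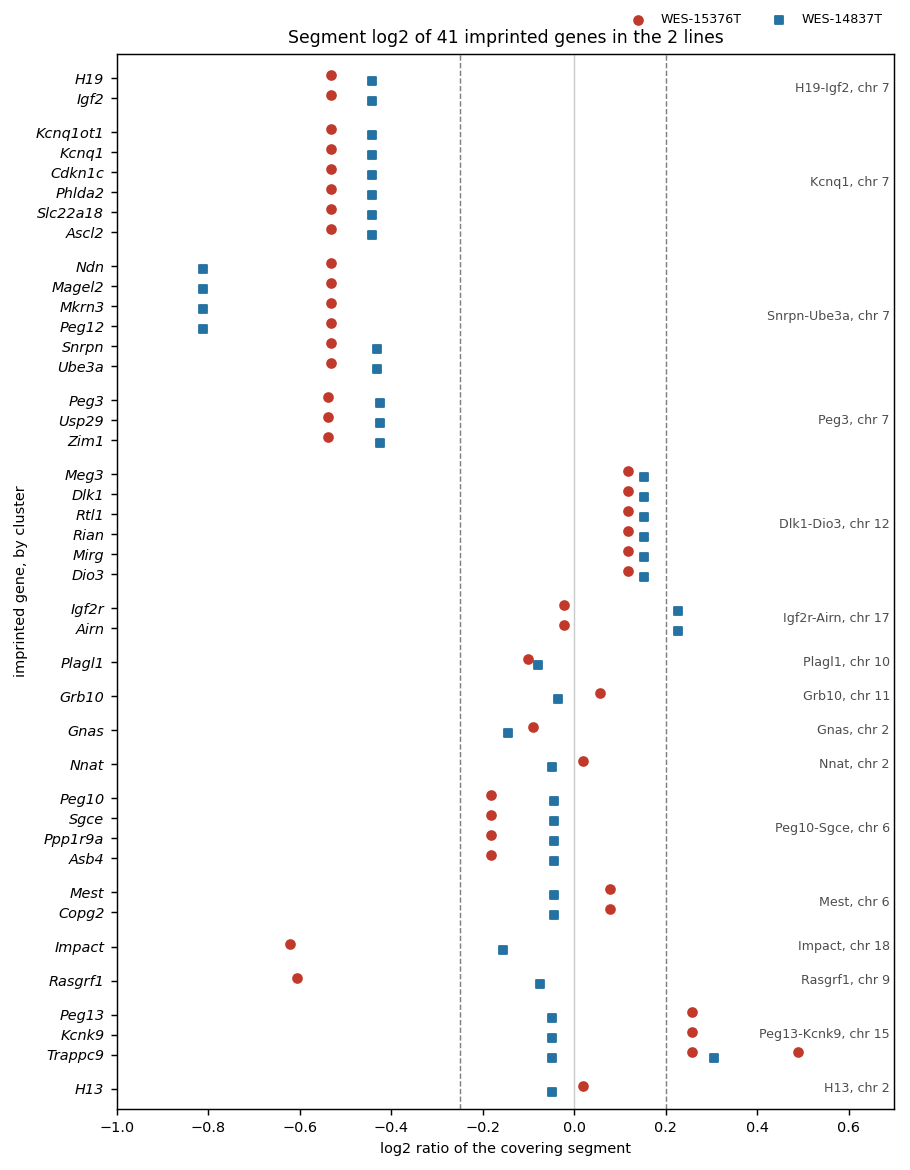
Log2 ratio of the segment that covers each of the 41 imprinted genes, grouped by cluster, in 15376T (circles) and 14837T (squares). Dashed lines mark the thresholds of a loss (-0.25) and a gain (0.2). The 17 genes on chromosome 7 lie left of the threshold in both lines, and Trappc9 has a pair of points per line because a border runs through it.

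The H19-Igf2 and Kcnq1 clusters lie next to each other near the end of chromosome 7, and had 1 value for all of their 8 genes. It was a log2 of -0.53 in 15376T, a coverage of 0.692 relative to the reference, and of -0.44 in 14837T, a coverage of 0.736. H19 is a maternally expressed long noncoding RNA and Igf2 the paternally expressed insulin-like growth factor 2. In the Kcnq1 cluster, Kcnq1ot1 is the paternally expressed noncoding RNA that silences its neighbors, and Kcnq1 (a potassium channel), Cdkn1c (the cell-cycle inhibitor p57), Phlda2 (a brake on placental growth), Slc22a18 (a transporter) and Ascl2 (a transcription factor of trophoblast and intestinal stem cells) are maternally expressed. In RefSeq they run from 142575530 to 142666816 and from 142966822 to 143503145. In 15376T, where both segments of chromosome 7 were called lost, they lay in a segment from 23274282 to 145340959 of 13453 bins. In 14837T they lay in a shorter one, from 141755046 to 145340959 with 626 bins, which began 0.820 Mb before H19. The lines differed by -0.090 here, which is less than the spread of 0.13.

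Peg3, Usp29 and Zim1 lie near the start of chromosome 7, from 6674444 to 6967220. Peg3 and Zim1 encode zinc finger proteins and Usp29 a deubiquitinase, and of the 3 only Zim1 is maternally expressed. Their segment ran from 3108994 to 21955783 with 1783 bins in both lines, and was 1 of only 2 segments holding imprinted genes with the same borders in both. Its log2 was -0.54 in 15376T and -0.42 in 14837T, a difference of -0.11 that is also within the spread. The BAF (B-allele fraction, how much of the reads at a variant site carry the other base) was 0.359 in 15376T and 0.182 in 14837T over this segment, against an autosomal median of 0.077 and 0.061.

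The Snrpn-Ube3a cluster was the 1 chromosome 7 cluster that a border divided. This cluster matches the human region of Prader-Willi and Angelman syndromes. It spans 3236 kb in RefSeq, from 59228750 to 62464510, and runs from Ube3a, the maternally expressed ubiquitin ligase, over Snrpn, which encodes a protein of the splicing machinery, to Ndn, Magel2, Mkrn3 and Peg12. In 15376T all 6 genes lay in the long segment at -0.53. In 14837T, Snrpn and Ube3a were at -0.43 in a segment of 996 bins, and Ndn, Magel2, Mkrn3 and Peg12 were at -0.81, a coverage of 0.570, in a segment from 61549795 to 63729244 with 51 bins. This was the lowest log2 of any imprinted gene in either line and the lowest of the 21 segments of chromosome 7 in 14837T, whose values ranged from -0.81 to -0.24. The difference between the lines was -0.100 for Snrpn and Ube3a and 0.28 for the 4 genes in the low segment, and only the latter was beyond the spread. The low segment had a mean depth of 15.8, and no BAF was given for it.

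**Figure D3:**
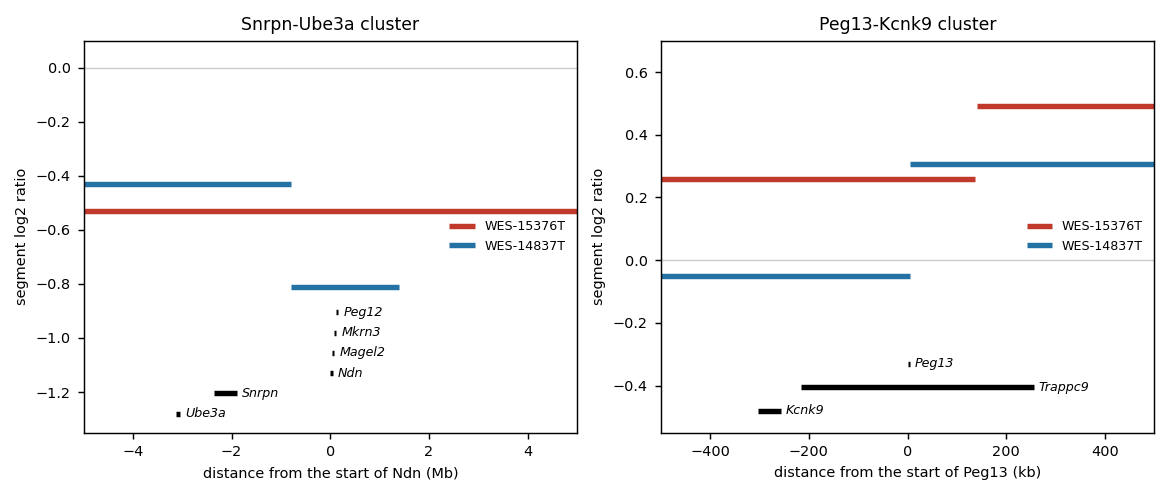
Segments that hold a gene of the Snrpn-Ube3a cluster (left, distance from the start of Ndn in Mb) and of the Peg13-Kcnk9 cluster (right, distance from the start of Peg13 in kb), drawn at their log2 ratio in 15376T and 14837T; black bars are the RefSeq genes, and segments without a listed gene are not drawn. In 14837T a border lies between Snrpn and Ndn and another just beyond Peg13, whereas the border of 15376T lies further into Trappc9.

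The step between the lines at these 4 genes was not seen in their own read depth, which was low in both lines. The gene tables list a gene where its segment has an absolute log2 of at least 0.40, and give the depth over the bins of the gene itself, which the segment value does not show. All 17 imprinted genes of chromosome 7 were listed in both lines over the same bins, 102 in all. Ndn, which encodes necdin, had a depth of 23.9 in 15376T and 26.4 in 14837T. Magel2, of the same MAGE family, had 13.6 and 16.0. Mkrn3, a makorin ring finger gene, had 20.3 and 21.5, and Peg12, a relative of Frat, had 11.3 and 13.4. Each was somewhat lower in 15376T, the line with the higher segment value. Depths were then divided by the geometric mean depth of 2-copy segments of the line (45.9 and 47.4) and compared on the log2 scale, 15376T minus 14837T. The differences were -0.093 for Ndn, -0.19 for Magel2, -0.039 for Mkrn3 and -0.20 for Peg12, with a median of -0.14, where the segments differed by 0.28. Snrpn, with a depth of 32.9 and 38.0, and Ube3a, with 31.8 and 36.9, differed by -0.16 and -0.17, so the difference between the lines was alike on either side of the border. The depths themselves were not alike. Relative to the mean of 2-copy segments on the log2 scale, the 4 genes lay between -1.82 and -0.84 in 14837T and between -2.02 and -0.94 in 15376T. Snrpn and Ube3a lay at -0.32 and -0.36 in 14837T and at -0.48 and -0.53 in 15376T.

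These 4 genes hold 7 of the 51 bins of the low segment. Over its 10 distinct listed genes, the difference by own depth lay below that of the segments in 8, and by a median of -0.40. Chrna7, a nicotinic receptor subunit named after its values were seen because it has the most bins of them (14), had a depth of 24.9 and 28.4 and a difference of -0.14. A gene of 1 or 2 bins has a wide spread, an SD of 0.28 over 932 genes listed in both lines, against 0.24 for 3 or 4 bins (471 genes) and 0.15 for 5 or more (1980 genes). Each of the 4 genes has 1 or 2 bins, and own depth minus segment was between -0.48 and -0.32, which is between 1 and 2 such SDs. Listed genes that overlap can share bins, so the 8 of 10 may not be separate counts. The depth of the bins outside the listed genes was not analysed here.

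**Figure D4:**
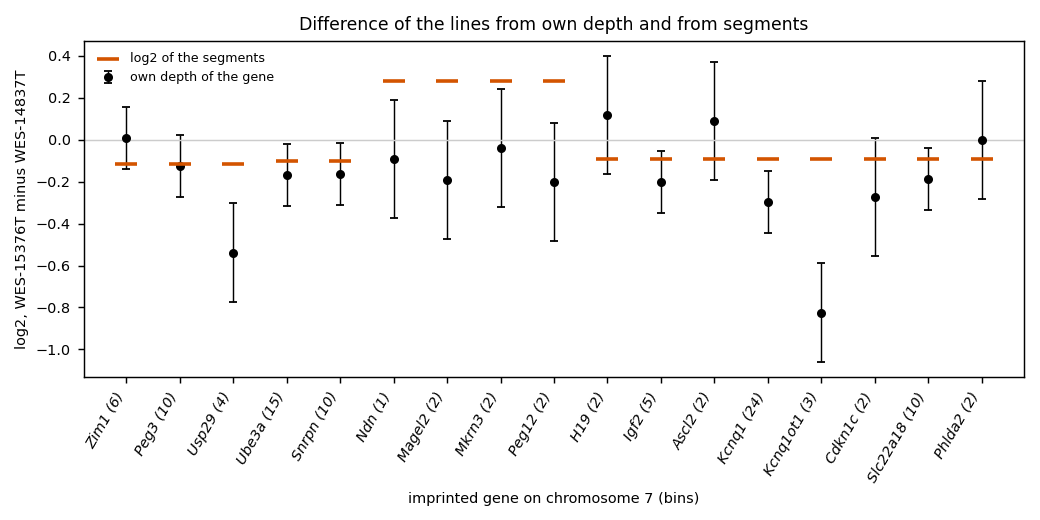
Log2 difference between the lines (15376T minus 14837T) for the 17 imprinted genes of chromosome 7, in genome order, from the depth over the bins of each gene (points) and from the segments (dashes). Bars are the SD of own depth around the segment difference among all genes with a like number of bins, and the bin number is in brackets. Ndn, Magel2, Mkrn3 and Peg12 lie below their dashes at 0.28, and Kcnq1ot1 lies lowest at -0.82.

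Across the 17 genes the own depths ranged from 11.3 to 43.5 in 15376T, with a median of 25.2, and from 13.4 to 49.5 in 14837T, with a median of 26.0. Genes with low depth in one line had low depth in the other, with a Pearson r of 0.93 over the log2 depths of 17 genes that share the capture and the mapping. The depth difference had a median of -0.17 and was negative in 14 of 17. All 1179 genes of chromosome 7 listed in both lines had a median of -0.13 with an SD of 0.22. Of the 17 genes, 10 lay within 1 SD of their segment value and 1 lay beyond 2 SDs.

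That gene was Kcnq1ot1. Its depth was 11.9 in 15376T and 21.8 in 14837T over 3 bins, a difference of -0.82 where the segments gave -0.090. The residual of -0.73 lay at the 1.06th percentile of genes with 3 or 4 bins. Kcnq1ot1 runs antisense within Kcnq1, and DNA reads do not tell the strands apart. Kcnq1 itself, over 24 bins, had a depth of 20.2 and 25.7 and a difference of -0.30, which is also lower than its segments gave but by less than Kcnq1ot1. Usp29 was next, with a depth of 33.0 and 49.5 over 4 bins and a difference of -0.54 against -0.11. Neither gene has a segment value of its own, and no call changed within these loci.

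The other genes of these clusters stayed near their segments. Igf2 had a depth of 19.05 in 15376T and 22.6 in 14837T over 5 bins, and H19 had 32.9 and 31.3 over 2 bins. In own depth H19 was 0.12 higher in 15376T and the difference for Igf2 was -0.20, and both lay within 1 SD of the segment value. Slc22a18 (10 bins) had 29.8 and 35.1, and Cdkn1c (2 bins) had the low depths of 12.0 and 15.0. Phlda2 had 25.2 and 26.0, and Ascl2 had 26.1 and 25.3. In the Peg3 cluster, Peg3 itself had 38.2 and 43.1 over 10 bins and Zim1 had 43.5 and 44.7 over 6 bins.

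A total of 9 clusters in 15376T and 10 in 14837T were called at 2 copies throughout. The one with the most genes was Dlk1-Dio3 on chromosome 12 (109452485 to 110281097), with a log2 of 0.12 in 15376T and 0.15 in 14837T for all 6 genes. Dlk1 encodes a Notch-like ligand, Rtl1 a retrotransposon-derived protein and Dio3 the deiodinase that inactivates thyroid hormone, and these 3 are paternally expressed. Meg3, Rian and Mirg are maternally expressed noncoding RNAs, of which Rian hosts small nucleolar RNAs and Mirg hosts miRNAs. The cluster lay within a segment of 5491 bins in 15376T. In 14837T its segment had 226 bins, with borders 1.45 Mb before Dlk1 and 0.241 Mb after Dio3, so the whole cluster was held in 1 short segment. The lines differed by -0.034, the value in 14837T being near the threshold of a gain. With log2 recentred on the autosomal median it came to 0.20 and the 6 genes were called gained in 14837T.

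The imprinted genes of chromosome 6 were at 2 copies in both lines. Peg10 (a retrotransposon-derived gene), Sgce (epsilon-sarcoglycan), Ppp1r9a (neurabin) and Asb4 (a SOCS box protein) had a log2 of -0.18 in 15376T and -0.045 in 14837T. Mest, which encodes a hydrolase, and Copg2, a coatomer subunit, had 0.078 and -0.045. In 15376T a segment of 240 bins ended 0.352 Mb after Asb4, and Mest lay in another of 1237 bins. In 14837T all 6 genes lay in 1 segment of 9981 bins. The difference of -0.14 at Peg10 was slightly beyond the spread of 0.13, and that of 0.12 at Mest was within it.

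The other genes at 2 copies in both lines are single entries of the list. Plagl1, a zinc finger transcription factor on chromosome 10, had a log2 of -0.10 in 15376T and -0.080 in 14837T in a segment of 3097 bins with the same borders in both lines. Grb10, an adaptor that restrains insulin signaling, had 0.056 and -0.036 on chromosome 11. Gnas, the stimulatory G protein alpha subunit, had -0.090 and -0.15. Nnat, which encodes neuronatin, and H13, a signal peptide peptidase, share a segment of chromosome 2 with 0.019 and -0.049. Each of these differences was smaller than the spread, and none of these genes passed a threshold.

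Calls differed between the lines for 7 of 41 imprinted genes (17.1%), against 29.5% of all autosomal gene names. The other 34 genes and 12 of 16 clusters had the same calls. This count moved with the settings, to 2 genes (Impact and Rasgrf1) with calls at an absolute log2 of 0.3, 15 at 0.5 and 13 with recentred log2. The 7 genes lie in 4 clusters, namely Igf2r-Airn, Impact, Rasgrf1 and Peg13-Kcnk9. All 7 are among the 24 imprinted genes off chromosome 7. The 17 on chromosome 7 had the same call in both lines, as did 96.8% of its 1920 gene names. Of all 21139 autosomal names 6244 had a different call, and only 62 of these lie on chromosome 7. The other names with a different call are among the 19219 off chromosome 7, where 7 of 24 imprinted genes differed. Chromosome 7 holds 17 of the 41 imprinted genes but 1920 of the 21139 names. The shares of 17.1% and 29.5% are therefore not a like comparison and do not show that imprinted genes differ less.

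Impact and Rasgrf1 were called lost in 15376T only. Impact, a regulator of translation, had a log2 of -0.62 in 15376T and -0.16 in 14837T. Rasgrf1, a Ras exchange factor on chromosome 9 (89909508 to 90026979), had -0.61 and -0.074. These were the lowest values of 15376T among the 41 genes, below those on chromosome 7, and the differences of -0.47 and -0.53 were the largest of any imprinted gene. Both genes were listed in 15376T alone, with a depth of 42.7 over 11 bins for Impact and 34.3 over 30 bins for Rasgrf1. On the log2 scale these depths were -0.10 and -0.42 relative to the mean of 2-copy segments, so the depth of Impact was near that mean while its segment was at -0.62. Depth also varied among genes of 1 segment. In 15376T, Zim1 lay at -0.075, Peg3 at -0.26 and Usp29 at -0.48 on this scale, in a segment at -0.54. The depth of a gene in 1 line alone therefore does not give its copy number. The depth of Impact and Rasgrf1 in 14837T is not part of its gene table.

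Igf2r and Airn were called gained in 14837T only. Igf2r encodes the receptor that clears IGF2, and Airn is the noncoding RNA that overlaps it in antisense and silences it on the paternal copy. The pair lies on chromosome 17 from 12682406 to 12859884. Their segment had 997 bins and a log2 of -0.023 in 15376T, and 723 bins and 0.23 in 14837T. The difference of -0.25 was beyond the spread, and the value of 14837T lay just over the threshold of 0.2. The cluster was not divided in either line.

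The Peg13-Kcnk9 cluster on chromosome 15 was divided in both lines, each time within Trappc9. Kcnk9, a potassium channel, and Trappc9, a subunit of a vesicle trafficking complex, are maternally expressed in brain, and Peg13 is a paternally expressed noncoding RNA within Trappc9. Kcnk9 and Peg13 had a log2 of 0.26 in 15376T, called gained, and of -0.049 in 14837T. Trappc9 had 0.26 and 0.49 on either side of the border in 15376T, both called gained, and -0.049 and 0.31 in 14837T, called at 2 copies and gained. In each line the value stepped up beyond Peg13, by 0.23 and 0.36.

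The borders were 131.7 kb apart. In 14837T the lower segment ended at 72810383, which is 59 bases beyond the end of Peg13 in RefSeq (72805602 to 72810324 on GRCm38.p6). The higher one began at 72810884, and 46.8% of Trappc9 lay in the lower segment. In 15376T the lower segment ended at 72942045 and the higher one began at 72946002, so that 74.7% of Trappc9 lay in the lower segment. The gap between the segments was 500 bases in 14837T and 3956 bases in 15376T. The lower segments held 385 bins in 15376T and 166 in 14837T. Trappc9 was listed in 15376T for its right-hand part, with a depth of 47.2 over 17 bins. A border is known only to the nearest bin, and the true breakpoints were not part of the tables.

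The BAF differed between clusters, whereas the called minor copy number was 0 for nearly all of them. The BAF of the segments that hold imprinted genes had a median of 0.068 in 15376T (14 segments, 0.023 to 1) and of 0.058 in 14837T (15 segments, 0.017 to 0.40, with none for the low segment of Ndn). The BAF of 1 belonged to the segment of Grb10 in 15376T, where that of 14837T was 0.027. Next in 15376T was the segment of Peg3 at 0.359, and the segment of Nnat and H13 had 0.067 in 15376T and 0.214 in 14837T. A minor copy number of 0 was called for all 14 segments of 15376T and for 13 of 15 in 14837T, including those at 2 copies. The same held for most autosomal 2-copy segments, 82 of 103 in 15376T and 85 of 96 in 14837T. In an inbred genome few sites differ between the parental copies, and the number of sites behind each BAF is not part of the tables, so a copy-neutral loss of 1 parental copy could not be read from them. The exception was the segment of Peg10 and Mest on chromosome 6 of 14837T, with a BAF of 0.40 and 1 copy of each allele called.

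Of a further list of 31 imprinted genes, 29 were found. Of these, 11 were called lost in 15376T (37.9%, against 30% of all autosomal names) and 12 in 14837T (41.4%, against 28.7%). Gains were called for 1 gene in 15376T (3.45%, against 9.13%) and 4 in 14837T (13.8%, against 21.4%). The 10 on chromosome 7 were lost in both lines, as were 100% and 96.8% of its gene names in 15376T and 14837T. Of the other 19, 1 was lost in 15376T and 2 in 14837T, where 23.0% and 21.9% of gene names on other autosomes were lost. The chromosome 7 genes include Ins2, an insulin gene next to Igf2, Th, the tyrosine hydroxylase, and Cd81, Tssc4, Tspan32, Nap1l4 and Osbpl5 around Kcnq1, all at -0.53 and -0.44. Atp10a (beside Ube3a) had -0.53 and -0.43, Zim3 (beside Zim1) had -0.54 and -0.42, and Inpp5f had -0.53 and -0.48. Outside chromosome 7, Htr2a, a serotonin receptor, was lost in both lines at -0.55 and -0.41. The call differed for 4 of the 29 genes, against 29.5% of all autosomal names, and all 4 lie off chromosome 7. Slc38a4, an amino acid transporter, went from 0.0086 in 15376T to 0.33 in 14837T, Dcn, which encodes decorin, had -0.00033 and -0.37, and Slc22a2 and Slc22a3, organic cation transporters beside Igf2r, shared its values of -0.023 and 0.23.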

How the data were processed

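Genomic DNA of 2 lines was analysed, 1 WES library each. For each line the authors deposited a segment table and a gene table, and GEO's processing notes name the build mm10. The aligner, the copy-number program and the reference are not given in the sources used here. The deposited log2 values are coverage ratios of segments to that reference. The deposited BAF is a fraction from 0 to 1. The deposited depth is a coverage signal without normalization. The copy number deposited for each segment is a whole number that broke the thresholds of -0.25 and 0.2 in 0 segments of either line. RNA-seq and tail DNA samples were not analysed here. Some items of the study are not reported here.

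Each gene received the segments whose gene column names it (Python 3.11.15, numpy 2.4.6, pandas 2.3.3; figures with matplotlib 3.10.9). Fewer than 2 copies counted as lost and more as gained. Starts were written counting from 1. RefSeq positions on GRCm38.p6 lay on the chromosome of the segment for 41 of 41 genes. Own depth was centred on the bin-weighted mean log2 depth of autosomal 2-copy segments. Genes that overlap (Kcnq1 and Kcnq1ot1, Igf2r and Airn, Peg13 and Trappc9, Mest and Copg2, and Meg3, Rtl1 and Rian) can share bins. The steps were tested on simulated segments. A line has 1 library, so nothing was tested and there are no p-values.

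All 41 genes are named. Of further imprinted genes, genes of imprint maintenance and of the Igf2 pathway, those with a different call in the lines or an absolute log2 of at least 0.5 are named. The genes and lists were chosen with earlier results of these data known. Alternatives tried were thresholds of 0.3 or 0.5 on the absolute log2, recentred log2, segments by RefSeq position, clusters counted once, the log2 of the gene table and own depth.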

Additional observations from a re-analysis of the deposited data

How the results depend on the processing

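The number of losses moved with the threshold in 14837T. In 15376T, 19 genes were lost with calls at an absolute log2 of 0.3 or 0.5 and with recentred log2, and 6 of 16 clusters with each cluster counted once. In 14837T, 4 genes were lost at 0.5 (Ndn, Magel2, Mkrn3 and Peg12), and 4 clusters counted once. Gains were 0 in both lines at 0.3 and at 0.5, and 1 cluster in each when clusters were counted once. At 0.3, Trappc9 was mixed in both lines and so not counted as gained. Its right-hand segment, at 0.49 in 15376T and 0.31 in 14837T, passed that threshold. Recentred on the autosomal median, 8 genes were gained in 14837T, because the 6 Dlk1-Dio3 genes came to 0.20. Different calls numbered 2 at 0.3 (Impact and Rasgrf1), 15 at 0.5 and 13 with recentred log2. With segments chosen by RefSeq position, the losses in both lines and the gains in 15376T were unchanged. Gains in 14837T were 3 in place of 2, and different calls were 6 in place of 7, with Trappc9 no longer among them. The log2 of the gene table equalled that of the segment for all 37 listed values, so it is not a separate measure. By own depth the sign of the difference between the lines turned for 7 genes, to 0.0080 for Zim1, -0.093 for Ndn, -0.19 for Magel2, -0.039 for Mkrn3, -0.20 for Peg12, 0.12 for H19 and 0.088 for Ascl2. The cause was not tested. No paired analysis was possible because there is only 1 library for each line. Depth limits what a gene of few bins can show: 8 of the 17 genes on chromosome 7 have 1 or 2 bins.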

Other observations

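Among the genes that maintain imprints, 7 of 10 had different calls in the lines, against 29.5% of all autosomal gene names, a count that was not tested. Dnmt1, the maintenance DNA methyltransferase, had a log2 of 0.099 in 15376T and 0.36 in 14837T, and Uhrf1, which brings it to DNA, had -0.0025 and 0.31. Dnmt3a, a de novo methyltransferase, had -0.42 and 0.20, lost in the former and gained in the latter by a narrow margin, and its cofactor gene Dnmt3l had 0.0100 and -0.38. Zfp57 and Zfp445, zinc finger genes that protect imprints, had 0.074 and 0.43, and -0.59 and -0.075. Dppa3 had 0.33 and -0.045. Trim28, the corepressor that Zfp57 recruits, lies on chromosome 7 and was lost in both lines at -0.54 and -0.42, and Dnmt3b and Ctcf were at 2 copies in both. Of the 10 genes, 3 were lost (30%) and 1 gained (10%) in 15376T, where all autosomal names were 30% lost and 9.13% gained. In 14837T, 2 were lost (20%) and 4 gained (40%), against 28.7% and 21.4%.

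In the Igf2 pathway, 4 of 8 genes were lost in 15376T (50%, against 30% of all autosomal names) and 3 in 14837T (37.5%, against 28.7%). In either line 0 were gained, where 9.13% and 21.4% of all names were. Igf1r, the receptor that IGF2 signals through, was lost in both lines at -0.53 and -0.59, and Igf2bp2, which binds Igf2 mRNA, at -0.54 and -0.40. Insr, the insulin receptor gene, and Irs2, its adaptor, shared a value of -0.60 in 15376T and of -0.072 in 14837T. Igf1 had -0.14 and -0.57. Calls differed for these last 3 genes of 8, against 29.5% of all names.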
